A study of Homo sapiens with 41 samples.

Results

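Genes of lung epithelium and mucus were followed, 10 in all: the transcription factors NKX2-1, FOXA1 and FOXA2, the surfactant gene SFTPB, the mucins MUC1, MUC2, MUC5AC and MUC5B, the water channel AQP3 and the keratin KRT7. They were taken by symbol from 6 tables of normalised read counts. The tables list 9 of the 10, among 23368 genes (21593 in the A375R tumour table), and MUC5AC was not analysed here. The study measured RNA in 41 libraries of 15 groups, with 8063754 to 42843612 reads recovered per library, to follow how cancer cells respond when their driver oncogene is inhibited.

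H3122 is a human lung adenocarcinoma line whose growth depends on an ALK fusion kinase. It was given crizotinib, an ALK inhibitor, at 0.3 µM for 48 h, or vehicle (n = 2 each). The melanoma lines A375, Colo800 and UACC62 carry a mutant BRAF kinase, which vemurafenib inhibits. A375 cultures received vemurafenib at 0.1 µM for 6 h or 48 h, or vehicle (n = 3 each). Colo800 and UACC62 cultures received 1 µM for 48 h, or vehicle (n = 2 each). All cultures were treated in medium with 2% serum, and their whole RNA was sequenced. A375 cells were also grown as tumours under the skin of mice, which were given vemurafenib (10 doses of 75 mg/kg) or vehicle (n = 4 each). A375R tumours, from a vemurafenib-resistant derivative of A375, were read from their titles as A375R mixed with A375 or A375R alone, an assumption. Each kind received the same dosing or vehicle (n = 3 per group). RNA of all tumours was pulled down with ribosomes on GFP beads, and the A375R titles name RPL10a, a ribosomal protein.

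NKX2-1 directs development of the lung and thyroid, and lung adenocarcinomas commonly retain it. It acts with the forkhead factors FOXA1 and FOXA2 on the genes of airway and alveolar cells, SFTPB among them. Mucins are large O-glycosylated proteins. MUC1 spans the membrane of most glandular cells, MUC5B and MUC5AC form airway mucus gels, and MUC2 is the gel-forming mucin of the intestine, made by some mucinous lung tumours. AQP3 carries water and glycerol through the basolateral membrane, and KRT7 is a filament protein of simple epithelia.

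RefSeq promoter windows, from 250 bases before to 50 bases after a transcription start, were found for 6 of the 10 genes, NKX2-1, SFTPB and MUC1 having 2 windows of which 1 is given. The 6 windows below, on GRCh38.p14, are printed because the factors among the genes bind promoters of others. Each is printed 5′ to 3′ on the gene's own strand, and capitals mark matches to the motif words searched.
NKX2-1, chr14:36519507-36519806, minus strand: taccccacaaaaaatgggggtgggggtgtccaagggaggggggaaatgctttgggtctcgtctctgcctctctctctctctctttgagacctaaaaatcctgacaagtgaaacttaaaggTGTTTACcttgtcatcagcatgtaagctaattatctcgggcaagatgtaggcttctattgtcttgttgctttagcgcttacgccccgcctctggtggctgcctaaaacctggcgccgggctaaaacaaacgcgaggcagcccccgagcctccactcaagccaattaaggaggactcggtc
FOXA1, chr14:37595200-37595499, minus strand: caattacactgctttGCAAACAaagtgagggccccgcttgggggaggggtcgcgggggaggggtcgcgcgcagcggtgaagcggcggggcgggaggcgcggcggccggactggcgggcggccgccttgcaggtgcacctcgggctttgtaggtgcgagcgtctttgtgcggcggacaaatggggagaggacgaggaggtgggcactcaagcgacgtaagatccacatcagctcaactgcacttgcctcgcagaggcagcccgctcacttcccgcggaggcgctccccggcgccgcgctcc
SFTPB, chr2:85668150-85668449, minus strand: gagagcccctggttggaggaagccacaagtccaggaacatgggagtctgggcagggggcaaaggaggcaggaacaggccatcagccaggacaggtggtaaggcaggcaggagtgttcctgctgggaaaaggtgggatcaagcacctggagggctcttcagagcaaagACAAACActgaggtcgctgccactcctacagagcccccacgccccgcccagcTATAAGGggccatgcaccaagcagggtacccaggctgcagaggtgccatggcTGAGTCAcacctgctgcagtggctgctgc
MUC1, chr1:155192866-155193165, minus strand: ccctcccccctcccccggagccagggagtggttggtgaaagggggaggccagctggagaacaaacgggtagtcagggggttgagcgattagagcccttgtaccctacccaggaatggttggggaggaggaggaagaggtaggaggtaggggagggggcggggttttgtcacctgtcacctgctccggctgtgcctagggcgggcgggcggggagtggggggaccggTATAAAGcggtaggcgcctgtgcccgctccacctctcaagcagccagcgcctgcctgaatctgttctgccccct
MUC2, chr11:1074624-1074923, plus strand: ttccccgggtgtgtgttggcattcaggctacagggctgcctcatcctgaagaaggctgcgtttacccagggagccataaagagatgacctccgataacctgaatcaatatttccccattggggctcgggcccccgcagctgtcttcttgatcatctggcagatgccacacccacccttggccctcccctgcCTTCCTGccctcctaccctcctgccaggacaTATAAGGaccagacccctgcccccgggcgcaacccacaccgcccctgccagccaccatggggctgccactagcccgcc
AQP3, chr9:33447544-33447843, minus strand: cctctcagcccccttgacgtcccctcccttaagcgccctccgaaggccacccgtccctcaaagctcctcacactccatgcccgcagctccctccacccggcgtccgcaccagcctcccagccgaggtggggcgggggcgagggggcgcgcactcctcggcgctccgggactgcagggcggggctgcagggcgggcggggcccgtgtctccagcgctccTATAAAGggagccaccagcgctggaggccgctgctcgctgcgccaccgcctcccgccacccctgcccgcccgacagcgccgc

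The forkhead words were TGTTTAC or TGTTTAT or TGTTTGC or TGTTTGT. On either strand they occur in the NKX2-1, FOXA1 and SFTPB windows and in 15.1% of all 35116 RefSeq windows. The TATA words were TATAAAA or TATAAAG or TATAAGG. They occur in the MUC1, MUC2, AQP3 and SFTPB windows and in 8.53% of all windows. Counting the first transcribed base as 0, the TATA word starts at -24 in MUC1, -28 in MUC2, -32 in AQP3 and -31 in SFTPB. SFTPB also holds an AP-1 word (of TGACTCA or TGAGTCA, in 4.95% of windows), and MUC2 holds an ETS word (CCGGAAG or CAGGAAG, in 21.8%). The NKX2 words TCAAGTG or TTAAGTG, in 4.86% of windows, are not among the letters of these 6. Other forms of an NKX2 site were not searched, so their absence from these windows is not shown. Of the windows not printed, that of NKX2-1 holds a forkhead word and that of MUC1 a TATA word. The SFTPB window not printed holds an AP-1 word and no forkhead or TATA word. No searched word overlapped another here, and a match describes letters, not a bound site.

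In H3122 given crizotinib, the transcription factors NKX2-1 and FOXA1 were higher, and FOXA2, the mucins MUC1, MUC2 and MUC5B, AQP3 and KRT7 were lower. Of the 9 listed genes, 8 passed the filter, a mean of at least 10 normalised reads over the table's libraries. Of these 2 were higher and 6 lower at a Benjamini-Hochberg adjusted p under 0.05 (limma), and 46.1% of the 13959 genes tested passed (22.1% higher, 24.0% lower). For each of the 8 genes, the 2 crizotinib and 2 vehicle libraries did not overlap. With 2 libraries per group this can occur without a change, and the share of all genes without overlap was not counted. Changes are on the log2(value + 1) scale, with SE, and understate the change of low genes. Nothing in the labels says that replicates came from separate cultures, so the p-values measure spread between libraries, which may be technical.

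NKX2-1 had 7244 and 7336 normalised reads in crizotinib libraries, against 3149 and 3422 in vehicle libraries. Both crizotinib values were above both vehicle values, a log2 change of 1.15 ± 0.083 (adjusted p = 6.48e-07). SFTA3, a gene that overlaps NKX2-1 in the RefSeq annotation, was at 112 and 109 RPM (recovered reads scaled to a common library total) with crizotinib and at 47.9 and 49.0 with vehicle. The library kit does not mark strand, so reads of overlapping genes cannot be fully told apart. MUC5B and KRT7 also overlap antisense genes in RefSeq. FOXA1 had 5368 and 5413 reads with crizotinib and 4091 and 3926 with vehicle, a smaller rise of 0.43 ± 0.080 (adjusted p = 0.00105). FOXA2 went the other way, at 65.5 and 66.7 reads with crizotinib and 215 and 227 with vehicle. Its log2 change was -1.73 ± 0.14 (adjusted p = 2.22e-06).

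SFTPB, which encodes surfactant protein B, was close to the detection limit. It had 2 recovered reads in each crizotinib library, and 7 and 10 in the vehicle libraries. It lay under the filter, and without a filter its log2 change was -1.60 ± 0.32 (adjusted p = 0.0286). NAPSA, an aspartic protease used with NKX2-1 as a marker of lung adenocarcinoma, was low in H3122, at 0.875 to 1.65 RPM over the 4 libraries. Unlike SFTPB, its group mean was under 1 RPM with vehicle and at least 1 with crizotinib. EPCAM, an epithelial surface protein, was at 465 to 528 RPM in the H3122 libraries, and at no more than 0.635 in any melanoma library. By these markers H3122 was epithelial and NKX2-1 positive, with SFTPB nearly absent and NAPSA low.

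**Figure D1:**
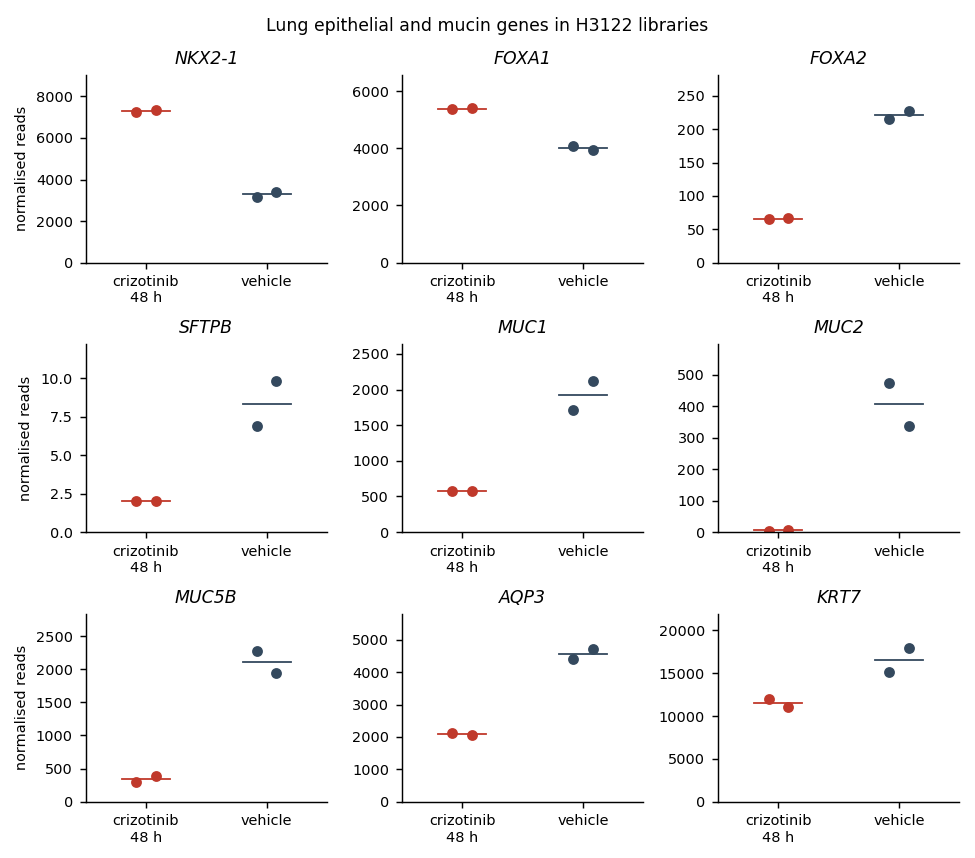
Normalised reads (vertical axis, linear from 0, a scale per gene) of the 9 listed genes in the 2 crizotinib and 2 vehicle libraries of H3122. Points are libraries and lines are group means. NKX2-1 and FOXA1 are higher with crizotinib and the other 7 lower, MUC2 at 5.03 and 8.21 reads against 475 and 338.

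The gel-forming mucins MUC2 and MUC5B had the lowest log2 changes among the members. MUC2 was at 5.03 and 8.21 normalised reads with crizotinib, 5 and 8 recovered reads, against 475 and 338 with vehicle. The change was -5.75 ± 0.25 (adjusted p = 1.42e-08), and it ran from -6.06 to -5.14 over the alternatives. MUC5B had 296 and 389 reads with crizotinib and 2268 and 1946 with vehicle (-2.63 ± 0.13, adjusted p = 2.75e-08). MUC1 had 576 and 576 reads with crizotinib and 1719 and 2120 with vehicle (-1.73 ± 0.10, adjusted p = 1.52e-07). The order of the log2 changes, MUC2 below MUC5B below MUC1, has gaps wider than the 95% intervals of -6.30 to -5.20, -2.90 to -2.35 and -1.95 to -1.50.

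AQP3 had 2120 and 2067 reads with crizotinib, against 4410 and 4711 with vehicle. That was a change of -1.12 ± 0.081 (adjusted p = 6.87e-07). KRT7 moved least among the genes that fell. It had 12004 and 11032 reads with crizotinib and 15094 and 17964 with vehicle (-0.52 ± 0.10, adjusted p = 0.00153).

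Other genes of the same programmes were read from 7 lists, beside a median log2 change of -0.01 over all genes tested. Of all genes tested 22.1% were called higher and 24.0% lower, and each list count stands beside these shares. Among lung secretory and alveolar genes, 5 of 14 tested rose and 4 fell, with a list median of 0.19. ABCA3, a lipid pump of surfactant-storing organelles, had 413 and 415 reads with crizotinib and 98.4 and 117 with vehicle (1.94 ± 0.13). LPCAT1, which makes surfactant phosphatidylcholine, rose by 1.35 ± 0.084, and HOPX, a homeodomain protein of alveolar cells, by 1.31 ± 0.17. Of the 4 that fell, BPIFA1, a secreted airway protein, was at the lowest change. It fell to 32.2 and 19.5 reads with crizotinib, against 231 and 290 with vehicle (-3.32 ± 0.23), and the protease inhibitor SLPI changed by -1.25 ± 0.13. WFDC2, another secreted whey-acidic protein, changed by -0.77 ± 0.12.

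Of 23 endoderm and airway transcription factors tested, 7 rose and 8 fell, with a list median of 0.08. GRHL1, an epithelial barrier factor, rose by 1.26 ± 0.083, SOX2, a factor of the conducting airway, by 1.08 ± 0.080, and FOXP2 by 1.83 ± 0.17. SPDEF, which drives goblet cell differentiation, had 186 and 185 reads with crizotinib and 634 and 664 with vehicle (-1.80 ± 0.10). SOX9, a factor of the distal lung tip, changed by -2.0 ± 0.11 and CREB3L1, a regulator of secretory pathway genes, by -1.47 ± 0.090. All named genes of the lists had an adjusted p under 0.05 by limma.

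More of the genes that accompany mucus were lower than higher. Of 23 mucus-associated and mucin-type O-glycosylation genes tested, 13 fell and 4 rose, with a list median of -0.38. TFF1, a trefoil peptide secreted with mucins, had 101 and 113 reads with crizotinib and 746 and 1007 with vehicle (-3.01 ± 0.14). ST3GAL1, which caps O-glycans with sialic acid, changed by -2.36 ± 0.12, and the glycan-branching enzyme GCNT3 by -1.18 ± 0.080. GCNT1, another branching enzyme, rose by 0.94 ± 0.085, as did ST6GALNAC1 by 0.34 ± 0.090 and TFF3 by 0.42 ± 0.15.

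Of 5 other mucins tested, 3 rose and 1 fell, with a list median of 0.78. The membrane mucin MUC16 had 904 and 1507 reads with crizotinib and 397 and 279 with vehicle (1.81 ± 0.21). MUC20, also a membrane mucin, rose by 0.88 ± 0.088, and OVGP1 by 0.78 ± 0.25. MUC13 had 41.3 and 26.7 reads with crizotinib, against 80.7 and 94.9 with vehicle (-1.37 ± 0.24). MUC20 has a near-identical pseudogene copy, so its counts are uncertain.

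Keratins followed KRT7 downward, 10 of 11 tested falling with a list median of -1.01. KRT8, KRT18 and KRT19, the simple-epithelial keratins, changed by -0.96 ± 0.11, -1.02 ± 0.12 and -1.01 ± 0.094. KRT6A fell to 14.1 and 14.4 reads with crizotinib, against 99.3 and 84.1 with vehicle (-2.60 ± 0.23), though KRT6A and KRT6B are near-identical and may share reads. KRT4, of stratified mucosa, was the 1 that rose (1.29 ± 0.10). Of 4 other aquaporins tested, AQP5, the channel of alveolar and gland surfaces, fell to 27.2 and 36.9 reads with crizotinib, against 98.4 and 113 with vehicle (-1.70 ± 0.21). AQP11 rose by 0.77 ± 0.26.

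Of 28 adhesion and junction genes tested, 5 rose and 8 fell, with a list median of -0.05, where 46.1% of all genes passed. The desmosome linker DSP rose by 1.72 ± 0.098, the tight-junction proteins CLDN3 and OCLN by 0.84 ± 0.13 and 0.67 ± 0.10. LSR, CLDN7 and CDH3 changed by -0.52 ± 0.093, -0.45 ± 0.091 and -0.43 ± 0.088.

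**Figure D2:**
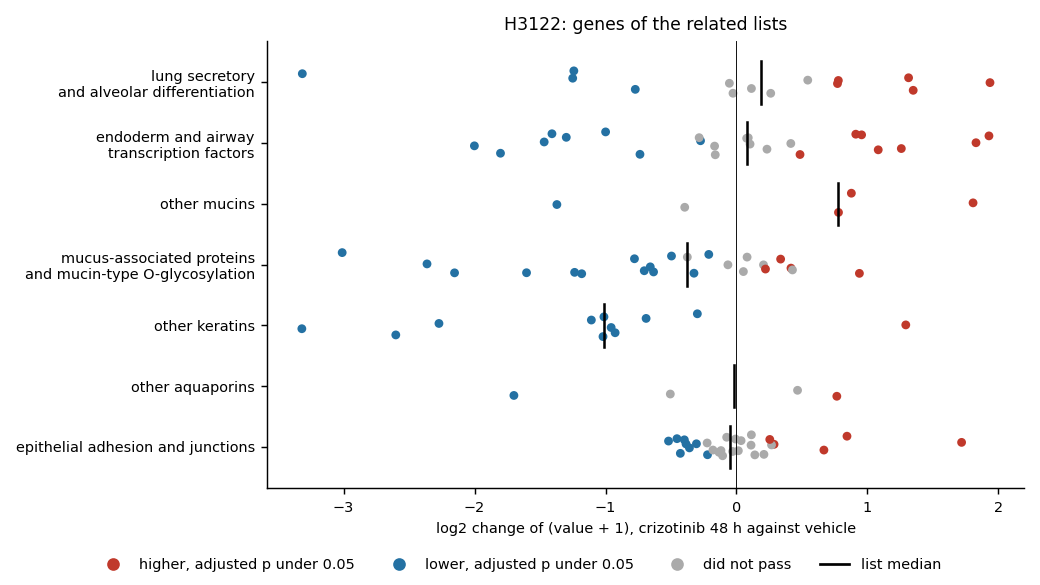
Log2 change of (value + 1) in H3122, crizotinib against vehicle (horizontal axis), of each tested gene in 7 related lists. Red and blue points passed an adjusted p of 0.05 and black bars are list medians, the lowest at -1.01 for the other keratins.

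Markers of other cells, apart from those of pigment cells, moved with the treatment in H3122. The 5 endothelial markers summed to 62.7 to 64.3 RPM with crizotinib and to 22.4 to 25.1 with vehicle. VWF and CDH5 rose, while 1 of the 3 tested was called lower and PECAM1 had 0 reads in all 4 libraries. The 6 fibroblast markers summed to 47.5 to 62.5 with crizotinib and 70.8 to 71.1 with vehicle. The 6 leukocyte markers summed to 4.54 to 4.98 with crizotinib and 9.62 to 10.0 with vehicle, and the 12 pigment cell markers to 11.8 to 12.6 with crizotinib and 10.1 to 13.2 with vehicle. Their part in the results was not tested. The H3122 libraries came from cultures of a cell line, to which no other cells are said to have been added. In bulk RNA, fewer cells of a kind and less RNA per cell cannot be told apart.

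Levels were next compared across the groups as RPM, as a description, because the tables were normalised separately. NKX2-1 was at 221 to 560 in H3122 libraries, and did not exceed 0.590 in the 25 libraries of A375, Colo800 and UACC62, 15 of them at 0. FOXA1 was at 270 to 413 in H3122 and at most 2.19 in those 25, with 0 reads in all 4 Colo800 libraries. FOXA2 had 3 reads in those 25 libraries together. SFTPB did not exceed 3 reads in any melanoma library.

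A375R tumours, alone or mixed, carried low counts of genes that A375 nearly lacked. NKX2-1 had 9 to 51 reads per A375R library (0.322 to 1.22 RPM), and 0 to 3 in the A375 tumour libraries. FOXA2 had 39 to 151 reads per A375R library, against 2 reads in the 8 A375 tumour libraries together. KRT7 stood out among the melanoma groups at 22.0 to 67.3 RPM in A375R tumours, where it had 687 to 2828 reads, and at most 3.28 in the other melanoma libraries. These levels remain under the 842 RPM that was the lowest for KRT7 in H3122.

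MUC1, MUC5B and AQP3 had at least 1 read in every one of the 41 libraries. Some of these were near the detection limit. MUC5B had 5 reads over the 3 libraries of A375R alone with vehicle, and AQP3 had 5 over the 2 Colo800 vemurafenib libraries. MUC5B was highest in H3122 with vehicle (134 to 159 RPM). The next 3 groups in order of their means were A375 culture at 6 h (16.7 to 46.1), A375 culture with vehicle (19.0 to 50.4) and H3122 with crizotinib (22.2 to 29.7), which overlap. AQP3 was at 158 to 324 in H3122, at 17.5 to 31.9 in A375 culture and 8.90 to 21.2 in A375 tumours, and at no more than 2.62 in the other groups. MUC1 was at 43.2 to 146 in H3122, at 15.5 to 18.3 in A375 after 48 h, and at 1.25 to 9.64 elsewhere. MUC2 was at 23.2 to 33.3 in H3122 with vehicle. H3122 with crizotinib (0.378 to 0.627) came below A375R tumours (0.819 to 1.84) and below A375 tumours with vehicle (0.938 to 1.90).

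**Figure D3:**
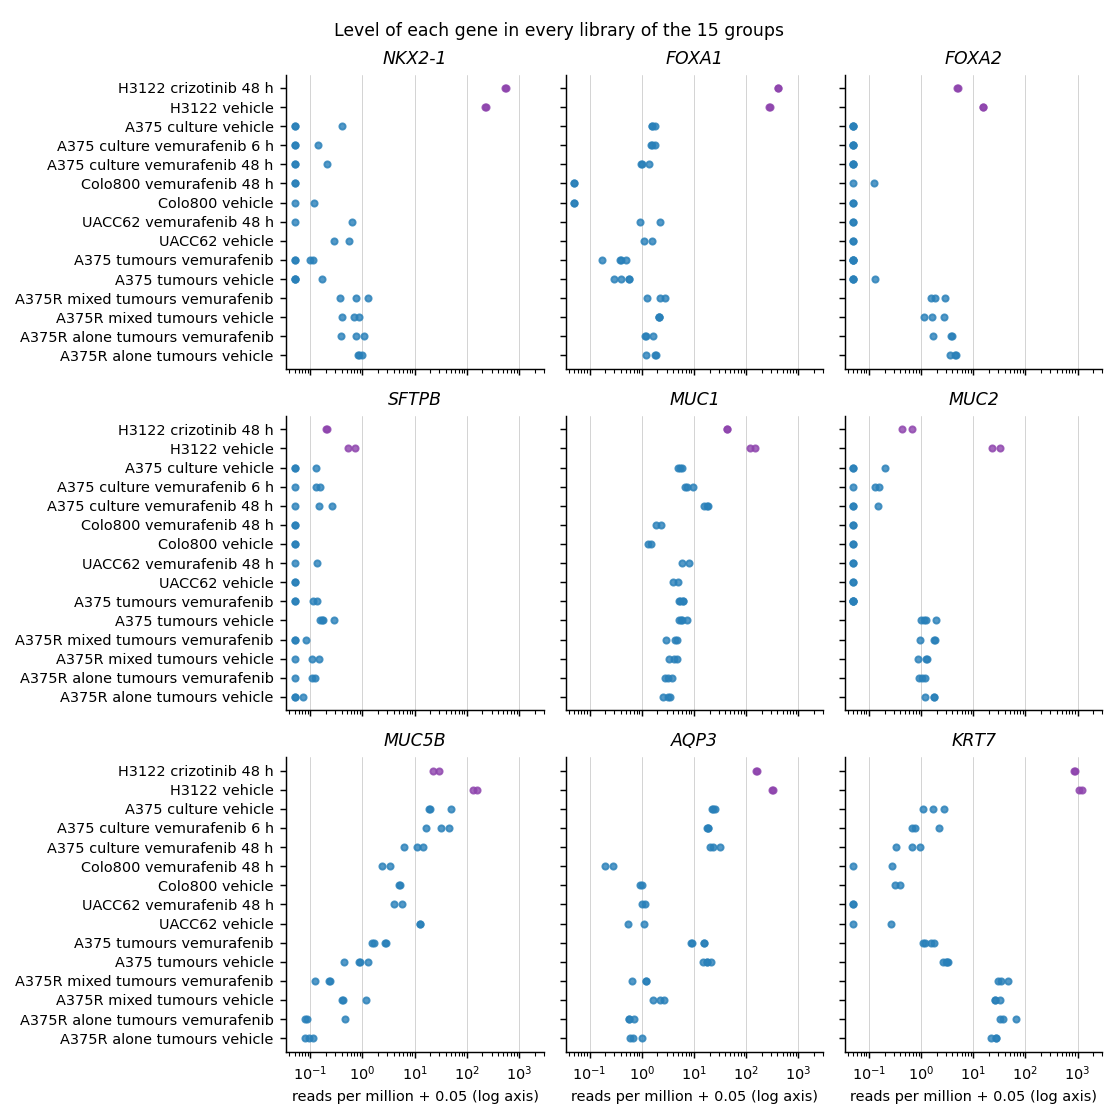
Levels in RPM plus 0.05 (horizontal log axis) of the 9 listed genes in each library of the 15 groups, H3122 in purple and melanoma in blue. NKX2-1, FOXA1, MUC1, AQP3 and KRT7 are higher in each H3122 library than in any melanoma library, and MUC5B of H3122 with crizotinib lies within the range of A375 culture.

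The genes most like each member were sought over the 15 group means of log2(RPM + 1), among 12712 genes. Groups of 1 line share their cells, and the 2 H3122 groups weigh heavily, so this describes the groups only. NKX2-1 was close to FAM84A (r = 0.998) and ADAM28 (0.997), and FOXA1 to NKX2-1 itself (0.988) and GNA15 (0.987). KRT7 was closest to SFN (0.991), BASP1 (0.987) and SDR16C5 (0.983), and FOXA2 to PLAU (0.979), SFN (0.966) and TNS4 (0.965). Among the mucins, the closest genes were S100A9 (0.956), PADI1 (0.928) and again TNS4 (0.926) for MUC2, NCBP1 (0.955), SREBF1 (0.947) and SUPT16H (0.940) for MUC5B, and C9orf169 (0.953), TPBG (0.950) and C10orf116 (0.944) for MUC1. AQP3 was closest to KIAA1383 (0.969), SLC29A2 (0.967) and PHF15 (0.962).

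In A375 culture MUC1 rose with vemurafenib, and MUC5B and KRT7 fell, all by 48 h. Of the 9 listed genes, 5 passed the filter. After 6 h none of the 5 passed, where 4.40% of 13816 genes did. At an unadjusted p under 0.05, AQP3 (-0.48 ± 0.16, adjusted p = 0.146) and MUC1 (0.42 ± 0.19, adjusted p = 0.269) stood out by limma, and neither edgeR nor DESeq2 called a member. After 48 h 3 of the 5 passed, beside 50.0% of all genes.

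MUC1 had 57.7, 68.3 and 64.0 normalised reads with vehicle, 79.6, 103 and 75.4 at 6 h, and 161, 197 and 193 at 48 h. All 48 h values were above the rest, a change of 1.52 ± 0.19 against vehicle (adjusted p = 8.87e-05) and of 1.10 ± 0.19 against 6 h (adjusted p = 0.00107). In 48 h against 6 h, where 39.3% of genes passed, MUC1 and MUC5B were the 2 called. MUC5B had 585, 220 and 231 reads with vehicle, 498, 179 and 347 at 6 h, and 151, 67.1 and 119 at 48 h. Its 48 h libraries lay below all others, at -1.53 ± 0.45 against vehicle (adjusted p = 0.0165) and -1.55 ± 0.45 against 6 h (adjusted p = 0.020), while replicate 1 was the highest at each time. The call against vehicle was lost without vehicle replicate 1 (-1.07, adjusted p = 0.0601) or 48 h replicate 2 (-1.20, adjusted p = 0.0672). The call against 6 h was lost without 6 h replicate 1 (adjusted p = 0.0699), 6 h replicate 3 (0.0523) or 48 h replicate 2 (0.0790).

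KRT7 was low in A375 culture, with 31.5, 11.9 and 19.8 reads for vehicle, 23.6, 6.76 and 7.99 at 6 h and 6.62, 3.10 and 9.94 at 48 h. The change of -1.56 ± 0.55 at 48 h (adjusted p = 0.0361) was no longer called without vehicle replicate 1 or 3 or 48 h replicate 1 or 2, with adjusted p-values from 0.0623 to 0.130. FOXA1, at 17.8, 17.4 and 20.7 reads with vehicle and 9.92, 14.5 and 9.94 at 48 h, gave -0.67 ± 0.29 (adjusted p = 0.0717). AQP3 was at 255, 296 and 278 reads with vehicle, 203, 187 and 202 at 6 h, and 332, 224 and 249 at 48 h. Its 48 h change against vehicle was -0.06 (95% interval -0.42 to 0.30). Against 6 h it was 0.42 ± 0.16 (adjusted p = 0.0633), and it passed in the fit that blocks on replicate number, by which these libraries are paired (adjusted p = 0.0404). DESeq2 (adjusted p = 0.0390) and the fit without 48 h replicate 2 (adjusted p = 0.0413) called AQP3 as well.

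Among the other mucins, all 3 tested in A375 culture were higher at 48 h. MUC15, a membrane mucin, had 118, 102 and 82.8 reads with vehicle, 184, 154 and 89.1 at 6 h and 782, 612 and 547 at 48 h (2.67 ± 0.26 against vehicle, adjusted p = 2.32e-05). MUC20 changed by 2.06 ± 0.31 (adjusted p = 0.000316) and OVGP1 by 1.43 ± 0.38 (adjusted p = 0.00954). Against 6 h, MUC15 and MUC20 passed, at 2.22 ± 0.26 and 2.16 ± 0.31 (adjusted p = 0.00012 and 0.000384).

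Markers moved with the 48 h change in A375 culture. The pigment cell markers summed to 1321 to 1619 RPM at 48 h and to 802 to 1033 with vehicle, the fibroblast markers to 52.1 to 69.0 at 48 h and 21.6 to 33.3 with vehicle, and the leukocyte markers to 92.1 to 151 at 48 h and 39.9 to 89.7 with vehicle. Neither of the 2 leukocyte markers tested was called. The part of all these markers in the MUC1, MUC5B and KRT7 values was not tested.

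Colo800 and UACC62 shared the fall of MUC5B. In Colo800 it had 31.4 and 44.1 reads with vemurafenib, against 72.4 and 75.1 with vehicle, a change of -0.97 ± 0.21 (adjusted p = 0.000413). MUC5B was the 1 call among the 2 genes tested there, where 73.3% of 13451 genes passed. In UACC62 it had 46.6 and 68.9 reads with vemurafenib, against 166 and 160 with vehicle (-1.51 ± 0.21, adjusted p = 0.000322). That was the 1 call among 4 genes tested, beside 56.5% of 13649 genes.

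MUC1 had 24.3 and 30.7 reads with vemurafenib and 21.1 and 18.3 with vehicle in Colo800 (0.46, 95% interval -0.13 to 1.05). In UACC62 it had 96.3 and 69.9 with vemurafenib and 49.9 and 62.9 with vehicle (0.54 ± 0.22, adjusted p = 0.0651). Groups did not overlap in either line. The UACC62 value passed with quantile normalisation (adjusted p = 0.0287), with edgeR (0.0486) and with the replicate block. Without vemurafenib replicate 2, which leaves 1 library in that group, the change was 0.77. AQP3 in Colo800 lay under the filter, at 3.04 and 1.92 reads with vemurafenib and 13.1 and 14.2 with vehicle, and passed without a filter (-2.09 ± 0.36, adjusted p = 0.00437). MUC20 rose in both lines, to 42.5 and 89.2 reads in Colo800 with vemurafenib against 8.04 and 15.2 with vehicle, and to 70.4 and 37.0 in UACC62 against 1.85 and 6.19 (adjusted p = 6.10e-06 and 0.000446). MUC7, a salivary mucin, had 0 reads in both vemurafenib libraries of Colo800 and 32 and 22 in the vehicle libraries (adjusted p = 2.25e-07).

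In Colo800 the pigment cell markers summed to 13445 to 14983 RPM with vemurafenib and 4322 to 4556 with vehicle, and the fibroblast markers to 21.9 to 22.9 with vemurafenib and 105 to 109 with vehicle. The leukocyte markers summed there to 149.8 to 152 with vemurafenib and 107 to 119 with vehicle, and the endothelial markers to 3.70 to 4.20 and 33.7 to 35.5 in the same groups. Of the 2 leukocyte markers tested in Colo800, 1 was higher and 1 lower. In UACC62 the pigment cell markers summed to 4237 to 4693 with vemurafenib and 1979 to 1993 with vehicle, and the fibroblast markers to 172 to 202 with vemurafenib and 102 to 112 with vehicle. The leukocyte markers summed there to 129 to 145 with vemurafenib and 46.2 to 46.5 with vehicle, and the endothelial markers to 3.23 to 4.38 and 7.71 to 9.0 in the same groups. Only 1 of the 6 leukocyte markers was tested in UACC62, and it was higher. The part of these markers in the MUC5B and MUC1 values was not tested.

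**Figure D4:**
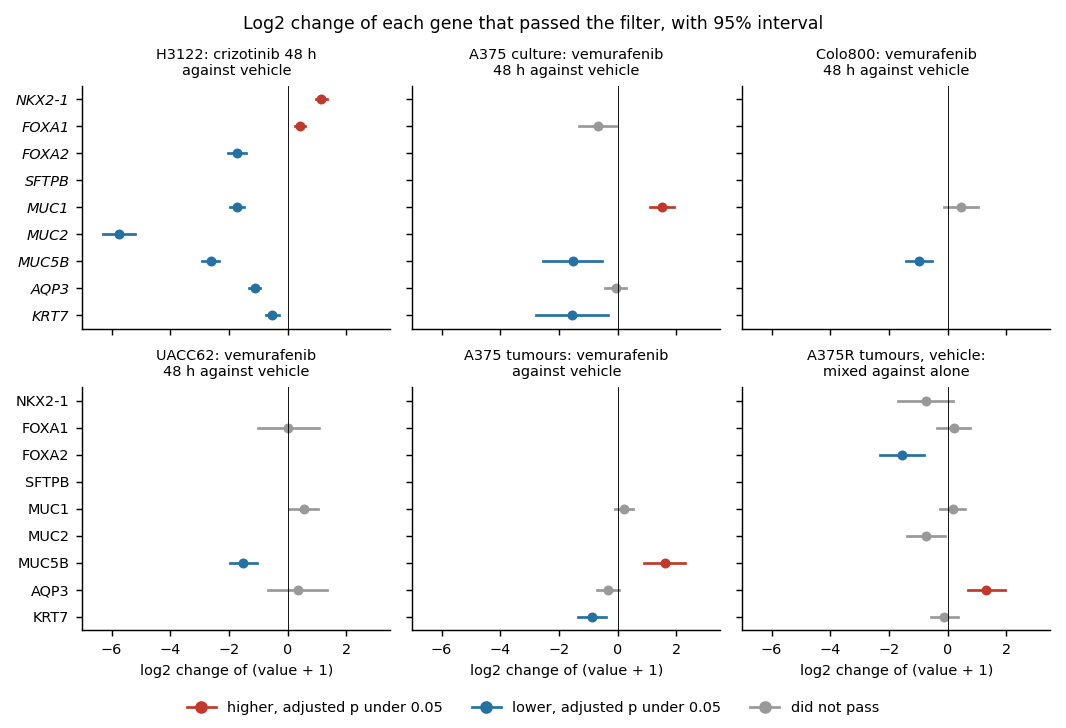
Log2 change of (value + 1) with its 95% interval (horizontal axis) for each gene that passed the filter, in 6 comparisons. MUC5B is lower in H3122 and in the 3 melanoma cultures and higher in A375 tumours, and MUC1 is lower in H3122 and higher in A375 culture.

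In A375 tumours MUC5B was higher with vemurafenib and KRT7 lower, 2 calls among 4 genes tested, where 68.3% of 14069 genes passed. MUC5B had 46.4, 41.6, 25.9 and 23.2 reads with vemurafenib, against 16.0, 11, 5.09 and 11.6 with vehicle. The groups did not overlap, and the change was 1.60 ± 0.33 (adjusted p = 0.000390). KRT7 had 28.3, 24.4, 18.0 and 16.1 reads with vemurafenib and 40.1, 43.8, 33.6 and 40.8 with vehicle (-0.87 ± 0.22, adjusted p = 0.00244). Both are low counts, at most 46 recovered reads for MUC5B and 66 for KRT7. AQP3, at 152, 249, 248 and 136 reads with vemurafenib and 234, 283, 195 and 247 with vehicle, overlapped (-0.33 ± 0.18, adjusted p = 0.111). It passed without vemurafenib replicate 2 or 3, at an adjusted p of 0.0341 or 0.0340. MUC1 gave 0.22 (95% interval -0.09 to 0.53).

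MUC2 was under the filter in A375 tumours. It had 0 reads in all 4 vemurafenib libraries, and 9, 8, 30 and 18 in the vehicle libraries. Against a floor of 3 reads over the vemurafenib group, MUC2 was at least 32.0-fold lower, and it passed without a filter (adjusted p = 4.26e-08). MUC6, a gel-forming mucin, lies in a row with MUC2, MUC5AC and MUC5B on chromosome 11, with LOC124902605 between MUC6 and MUC2 (RefSeq). MUC6 had 0, 3.05, 1.57 and 3.22 normalised reads with vemurafenib. With vehicle it had 88.2, 62.6, 96.7 and 149.9 (-5.22 ± 0.41, adjusted p = 9.43e-09). MUC6, and MUC2 in the fit without a filter, were thus lower in tumours in which MUC5B, of the same row, was higher. MUC13 changed by -4.02 ± 0.41 (adjusted p = 2.25e-07), MUC15 by 1.17 ± 0.11 (adjusted p = 9.57e-08) and MUC20 by 1.95 ± 0.33 (adjusted p = 5.30e-05). OVGP1 completes the mucins tested (1.19 ± 0.48, adjusted p = 0.0357). SFTPB, at 0 to 2 reads with vemurafenib and 1 to 3 with vehicle, also passed without a filter (-0.96 ± 0.37, adjusted p = 0.0396).

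Pigment cell and fibroblast markers moved in the same tumours. The 12 pigment cell markers summed to 588 to 637 RPM with vemurafenib and to 94.1 to 140 with vehicle. SOX10, the neural crest factor that makes up most of this sum with S100B, was at 403 to 457 with vemurafenib and at 44.3 to 70.2 with vehicle, while MLANA and PMEL stayed under 1 in both. The 6 fibroblast markers summed to 53.6 to 63.8 with vemurafenib and 81.8 to 116 with vehicle. The part of these markers in the MUC5B, MUC2 and KRT7 values was not tested.

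In A375R tumours none of the 7 genes tested was called with vemurafenib, in tumours of A375R alone, where 0.792% of 13755 genes passed, or in mixed tumours, where 3.48% passed. At an unadjusted p under 0.05 limma gave KRT7 and MUC2 in the first and AQP3 and KRT7 in the second, and neither edgeR nor DESeq2 called a member in these. KRT7 had 1137, 1665 and 1060 reads in mixed tumours with vemurafenib and 722, 866 and 1020 with vehicle (0.55, 95% interval 0.08 to 1.02). In tumours of A375R alone it had 2184, 1193 and 1052 reads with vemurafenib and 1015, 970 and 819 with vehicle (0.59, 95% interval 0.12 to 1.06). Neither pair of groups overlapped, and adjusted p was 0.175 in mixed tumours and 0.171 in A375R alone. The fibroblast markers summed to 83.1 to 94.6 RPM with vemurafenib and 36.6 to 74.9 with vehicle in mixed tumours, and to 78.6 to 105 with vemurafenib and 34.9 to 43.8 with vehicle in A375R alone. The pigment cell markers in mixed tumours summed to 17.6 to 21.5 with vemurafenib and 31.3 to 55.6 with vehicle. The leukocyte markers in A375R alone summed to 118 to 186 with vemurafenib and 215 to 265 with vehicle. None of the 3 leukocyte markers tested was called there. The part of all these markers in the KRT7 and AQP3 values was not tested.

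Mixed tumours differed from A375R alone in AQP3 and FOXA2 under vehicle, 2 calls among 7 genes, where 3.30% of all genes passed. AQP3 had 72.9, 53.8 and 69.5 reads in mixed tumours and 20.1, 34.5 and 23.8 in A375R alone (1.31 ± 0.30, adjusted p = 0.0230). FOXA2 had 42.8, 90.8 and 34.3 reads in mixed tumours and 164.5, 124 and 174 in A375R alone (-1.56 ± 0.36, adjusted p = 0.0264). The groups did not overlap in either gene. In A375 tumours with vehicle AQP3 was at 15.1 to 21.2 RPM, against 0.547 to 0.980 in A375R alone. FOXA2 was at most 0.0785 RPM in those A375 tumours, against 3.52 to 4.68 in A375R alone. Each call was lost without replicate 1 or 3 of either group, with adjusted p from 0.0561 to 0.130 for AQP3 and from 0.0754 to 0.148 for FOXA2. MUC5B, under the filter, had 31.0, 11.9 and 11.4 reads in mixed tumours and 1.12, 1.64 and 2.38 in A375R alone, and passed without a filter (2.70 ± 0.65, adjusted p = 0.0421).

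The same pair of groups differed in pigment cell markers, whose 12 genes summed to 31.3 to 55.6 RPM in mixed tumours and 12.2 to 22.4 in A375R alone. SOX10 was at 1021, 508 and 837 normalised reads in mixed tumours and at 129, 55.8 and 118 in A375R alone. TYR had 0 reads in both groups. The leukocyte markers summed to 122 to 162 in mixed tumours and 215 to 265 in A375R alone. Of the 3 leukocyte markers tested, 1 was higher in mixed tumours, 1 lower and 1 not called. The part of the markers, or of RNA from A375 cells in mixed tumours, in the AQP3, FOXA2 and MUC5B values was not tested.

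Under vemurafenib no member was called between mixed tumours and A375R alone, where 0.240% of genes passed. At an unadjusted p under 0.05 limma gave AQP3 (0.82 ± 0.30) and FOXA1 (0.73 ± 0.27) there, and neither edgeR nor DESeq2 called a member. The difference between the 2 vemurafenib responses, tested as an interaction, gave no member call with limma or edgeR, where 2.89% of genes passed, and MUC2 and FOXA2 at an unadjusted p under 0.05. MUC2 had 57.6, 32.2 and 66.8 reads in mixed tumours with vemurafenib and 22.8, 41.8 and 37.0 with vehicle, and 27.8, 35.5 and 32.3 in A375R alone with vemurafenib and 63.8, 41.1 and 65.5 with vehicle. The interaction was 1.38 ± 0.43 (adjusted p = 0.0896), and DESeq2 called it (adjusted p = 0.0427).

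**Figure D5:**
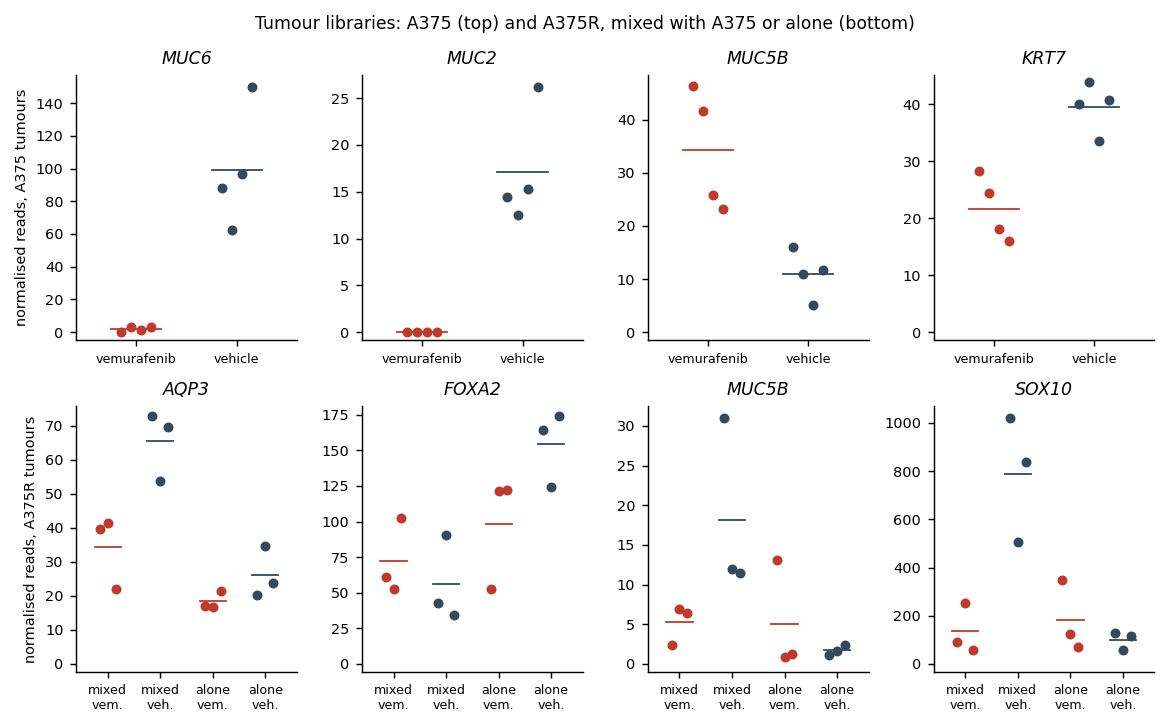
Normalised reads (vertical axis, linear, a scale per panel) in A375 tumour libraries (top) and A375R tumour libraries (bottom), with lines at group means. MUC6 and MUC2 are at or near 0 with vemurafenib in A375 tumours while MUC5B is higher, and AQP3 and SOX10 are highest in mixed tumours with vehicle.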

How the data were processed

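RNA libraries were made with an Illumina TruSeq kit, version 2, per the labels' protocols. Each deposited table holds 1 signal per gene symbol and library, read counts that the authors divided by a size factor. The aligner STAR 2.3.0e, the counter HTSeq 0.5.4, the package DESeq 1.18.0 and the human and mouse builds hg19 and mm9 are listed in the submitters' processing notes, with no order or role. How mouse reads in tumours were handled is not stated there. Within each library, values fell on multiples of a single step (100% within a tolerance of 0.1 read), which recovered 8063754 to 42843612 reads per library. Deeper libraries have smaller counting error, and floors cover counting error only.

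Each table was fitted on its own, all groups together, with limma 3.58.1 (R 4.3.3, limma-trend) on log2(value + 1), for genes with a mean of at least 10. Calls needed a Benjamini-Hochberg adjusted p under 0.05, from two-sided tests. Alternatives were edgeR 4.0.16 and DESeq2 1.42.0 on recovered reads, quantile normalisation, pseudocounts of 0.5 and 5, no filter, a filter at 50, the replicate number as a block, the 2 groups alone, and leaving out each library. Scripts were tested on simulated data. The A375R file has 2 rows that name no gene, which held 0 reads and were dropped.

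Members and lists were chosen with earlier results of these data known. Named genes are the members, up to 3 list genes per direction with the smallest adjusted p in H3122, mucins that passed, and the 3 most like each member, of which 1 gene is not reported here. KRT18, SFTA3, NAPSA, EPCAM, S100B and SOX10 were named after their values were seen. In A375 culture replicate numbers pair vehicle with 6 h (correlations of deviations 0.567, 0.310 and 0.566) and 6 h with 48 h (0.436, 0.197 and 0.410). For vehicle and 48 h the correlations were 0.402, 0.028 and 0.320. The main fit did not use this pairing, and the fit that blocks on replicate number kept the MUC1, MUC5B and KRT7 calls.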

Additional observations from a re-analysis of the deposited data

Results flagged for a closer look

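MUC5B moved in opposite directions with vemurafenib in different settings, each time with no overlap between the libraries of the 2 groups. It changed by -1.53 in A375 culture at 48 h, by -0.97 in Colo800 and by -1.51 in UACC62, all called, and by 1.60 in A375 tumours, also called. KRT7 fell in A375 culture at 48 h (-1.56) and in A375 tumours (-0.87). Its values of 0.59 in tumours of A375R alone and 0.55 in mixed tumours, again without overlap, were not called. These values come from tables normalised separately, cultures and tumours differ in RNA preparation and dosing, and the differences between settings were not tested. How many of all genes lacked overlap was not counted in any setting.

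In the A375 tumour groups of 4 libraries, 16 gene and group pairs were checked for a library far from the others, and chance flags about 1 in 20. In the vehicle group 3 stood out, all at 2 to 3 recovered reads: NKX2-1 at 1.53 normalised reads in replicate 3 with the others at 0, FOXA2 at 1.02 in replicate 3 with the others at 0, and SFTPB at 3.13 in replicate 2. With the other 3 libraries at 0, any read flags a library, so the chance rate does not apply to NKX2-1 and FOXA2. Replicate 3 was also the deepest library of its group, at 25467614 reads against 8063754 to 9452652 in the others.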

How the results depend on the processing

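Of the 19 member calls, the 8 in H3122 and those of MUC1 in A375 culture, MUC5B in Colo800 and UACC62, and MUC5B and KRT7 in A375 tumours kept direction and call wherever they were tested.

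Without a filter 2 members were called in Colo800 and 4 in A375 tumours, in place of 1 and 2. With a filter at 50, 0 were called in A375 tumours and 1 in mixed against alone tumours under vehicle, since fewer members were tested. In UACC62, 2 in place of 1 were called with quantile normalisation, the replicate block and edgeR, MUC1 being the addition. The A375R interaction had 1 call with DESeq2. FOXA1 passed in A375 culture at 48 h with quantile normalisation (-1.02, adjusted p = 0.0124). Leaving out 1 library gave 1 to 3 calls in A375 culture at 48 h, 1 to 2 for 48 h against 6 h, 1 to 2 in Colo800 and in UACC62, 2 to 3 in A375 tumours and 0 to 2 in mixed against alone tumours under vehicle.

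The signs that turned were all of changes not called. MUC5B at 6 h was -0.0050 with edgeR and -0.013 with DESeq2, and -0.31 to 0.47 leaving out 1 library. Other such ranges, leaving out 1 library, were -0.22 to 0.060 for AQP3 in A375 culture at 48 h, -0.59 to 0.65 for FOXA1 and -0.13 to 0.82 for AQP3 in UACC62, and -0.21 to 0.030 for MUC1 with vemurafenib in A375R alone. In mixed tumours they were -0.035 to 0.85 for NKX2-1 and -0.15 to 0.39 for FOXA1. For mixed against alone they were -0.22 to 0.68 for NKX2-1 and -0.36 to 0.17 for KRT7 under vemurafenib, -0.23 to 0.014 for KRT7 under vehicle, and -0.24 to 0.28 for KRT7 in the interaction. Their causes were not tested.

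The count over all genes depended on the setting in A375 culture at 6 h (444 to 1462) and in A375R tumours: 14 to 755 with vemurafenib in A375R alone, 248 to 958 in mixed tumours, 8 to 151 and 297 to 870 for mixed against alone under vemurafenib and vehicle, and 185 to 887 for the interaction. Leaving out 1 library, these were 309 to 641, 1 to 326, 96 to 563, 1 to 38, 109 to 660 and 10 to 526. With no library left out, the count over all genes ran from 4665 to 8522 in H3122 and from 6565 to 8104 in UACC62. In UACC62 it ran more widely when 1 library was left out, which leaves 1 library in a group. Quantile normalisation moved the median over all genes by 0.10 in Colo800. In H3122 same-numbered libraries deviated in opposite directions (correlation -0.209), and the replicate block and the crossed pairing, added after the data were seen, called 5381 and 8522 genes in place of 6436, with the same 8 members. Outside A375 culture the numbers did not pair the libraries. The block changed no member call there other than MUC1 in UACC62.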
